A study of Mus musculus with 4 samples.

Results

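The heavy chain variable segments are the rows of the deposited expression table whose gene name starts with Ighv, 185 of 46517 rows. Their levels come from mRNA sequencing of LSK cells, sorted as Lin- Sca-1+ c-Kit+, a fraction known to hold blood stem cells along with multipotent progenitors. The cells came from C57BL/6 mice of 8 to 10 weeks that were Setd2 knock-out, written Setd2D/D (2 libraries), or wild type for Setd2, written Setd2f/f (2 libraries). Neither the Cre line, nor the exons removed, nor how many mice made up 1 library is stated in the labels, so a p-value measures only the spread between libraries, which may be technical. Setd2, the enzyme that trimethylates lysine 36 of histone H3, had 43.4 and 49.5 TPM in Setd2D/D, against 78.9 and 68.0 TPM in Setd2f/f, a level over the whole gene that does not show which exons are missing. TPM expresses a gene's share of the transcripts in a library after correction for length. All 8 LSK markers looked at were above 0 in every library. However, Ly6a and Kit, which encode markers of the sort, did not overlap between the genotypes. Ly6a, which encodes Sca-1, had 46.5 and 80.6 TPM in Setd2D/D, against 127.5 and 124 TPM in Setd2f/f (FDR 3.08e-06 in the authors' deposited table, limma adjusted p = 0.370). Kit had 301 and 285 TPM in Setd2D/D, against 224 and 249 TPM in Setd2f/f. Its FDR in the authors' deposited table was 0.113 and its limma adjusted p was 0.420. Among the markers that were not part of the sort, Cd34 had 520 and 476 TPM in Setd2D/D, against 773 and 747 TPM in Setd2f/f. Flt3 was also lower in both Setd2D/D libraries, while Hlf, Meis1, Mecom and Gata2 overlapped between the genotypes.

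A heavy chain variable region is put together in developing B cells, when the RAG recombinase joins 1 of many V segments to a D and a J segment in front of the constant region of IgM. Each B cell and its progeny then transcribe mainly the segment that was joined, which becomes part of the antibody and of its antigen-binding site. Unrearranged V segments can also be transcribed at a low level, and the table does not tell these from joined ones. All 185 members lie on chromosome 12 of GRCm38 between 113572927 and 116010093, with the D segments and the constant regions beyond the lower end. GENCODE annotates 113 of them as V genes, 70 as V pseudogenes and 2 as another kind of V gene. Their names give the subfamily first and then a number that runs, with exceptions, from the D segments outward; Ighv5-1 is the nearest and Ighv1-86 the farthest.

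The 6 segments on which most of the description turns are shown by the last 150 bases of their V exon, 5′ to 3′, from the GENCODE transcripts on GRCm38. They were picked after their values were seen, as segments that led a library or differed most clearly between the genotypes. Capitals mark the stretch from the last conserved cysteine codon (TGT) to the end. The bases after this codon hold the part that the segment itself gives to the third complementarity-determining region.
Ighv11-2, chr12:114048241-114048390, minus strand: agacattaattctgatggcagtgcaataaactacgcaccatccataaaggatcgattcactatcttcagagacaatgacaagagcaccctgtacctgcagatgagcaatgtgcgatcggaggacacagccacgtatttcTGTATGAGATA
Ighv12-3, chr12:114366521-114366670, minus strand: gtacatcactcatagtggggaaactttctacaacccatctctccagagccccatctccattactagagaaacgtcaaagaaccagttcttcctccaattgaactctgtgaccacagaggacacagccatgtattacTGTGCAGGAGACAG
Ighv14-4, chr12:114176438-114176587, minus strand: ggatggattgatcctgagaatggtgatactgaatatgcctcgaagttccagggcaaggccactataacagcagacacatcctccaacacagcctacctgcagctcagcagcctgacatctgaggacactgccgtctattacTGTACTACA
Ighv1-55, chr12:115208095-115208244, minus strand: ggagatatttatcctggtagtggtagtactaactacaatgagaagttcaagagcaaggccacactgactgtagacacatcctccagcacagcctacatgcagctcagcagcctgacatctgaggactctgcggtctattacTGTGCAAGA
Ighv8-8, chr12:115294062-115294211, minus strand: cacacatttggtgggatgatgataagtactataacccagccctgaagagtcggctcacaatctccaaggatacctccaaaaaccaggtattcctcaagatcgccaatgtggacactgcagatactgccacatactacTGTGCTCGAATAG
Ighv10-3, chr12:114523441-114523590, minus strand: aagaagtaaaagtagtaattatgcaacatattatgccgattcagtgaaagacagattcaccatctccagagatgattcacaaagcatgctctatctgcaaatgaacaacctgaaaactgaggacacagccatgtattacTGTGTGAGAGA
Over these 150 bases Ighv14-4 and Ighv1-55 were 79.3% identical, and the other pairs between 52.7% and 68.0%. Closer relatives exist for some of them. Over the last 290 bases Ighv11-2 was 98.6% identical to Ighv11-1, Ighv14-4 was 97.2% identical to Ighv14-1, and Ighv10-3 and Ighv1-55 were 96.6% identical to Ighv10-1 and Ighv1-62. Ighv8-8 was 96.9% identical to Ighv8-11. Ighv12-3 had the lowest identity to its nearest relative among the 6. Among all 185 members, 34 had a neighbour of at least 97% identity, and for these the split of reads between neighbours is uncertain.

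The summed level of the segments was close in the 2 genotypes, but it was carried by fewer segments in Setd2D/D LSK cells, at 0.528 of the number in Setd2f/f by the means. The Ighv total was 1317 and 1084 TPM in Setd2D/D, against 1373 and 1222 TPM in the Setd2f/f libraries. The means were 1200.2 ± 165 and 1298 ± 107 TPM (SD, n = 2 each), and the 2 ranges overlapped. Ighm, the IgM constant region to which the segments are first joined, was at 1776 and 1185 TPM in Setd2D/D, against 1923 and 1326 TPM in the Setd2f/f libraries. The ratio of the Ighv total to Ighm was 0.741 and 0.914 in Setd2D/D, against 0.714 and 0.922 in Setd2f/f, and the ranges overlapped. In the limma fit Ighm had a log2 difference of -0.14 (SE 0.27, adjusted p = 0.880).

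The number of segments above 0 was 45 and 49 in the Setd2D/D libraries, against 79 and 99 in the Setd2f/f libraries. Neither Setd2D/D library reached the lower Setd2f/f library. At a level of at least 1 TPM the numbers were 43 and 47 in Setd2D/D, against 67 and 87 in Setd2f/f. At 5 TPM they were 36 and 32 in Setd2D/D, against 44 and 54 in Setd2f/f. At 10 TPM they were 29 and 24 in Setd2D/D, against 33 and 34 in Setd2f/f, so that the gap narrowed as the level required rose and came mostly from segments of low level. The smallest p that an exact permutation test allows for 2 libraries in each genotype is 0.33 (2-sided), so none is given for sums and numbers of segments.

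Depth differed between the libraries, and its part in the number of segments seen was not tested. From the steps between the lowest values, 1 read on a segment of median length was worth about 0.216 TPM in Setd2D/D replicate 1 and 0.149 TPM in Setd2D/D replicate 2, against 0.158 and 0.133 TPM in the Setd2f/f libraries. Setd2D/D replicate 1 was the shallowest, with 0.615 times the estimated depth of the deepest, Setd2f/f replicate 2. The steps were less regular in the Setd2D/D libraries. Their mean cosine, which is 1 for perfect steps, was 0.390 and 0.283 there, against 0.648 and 0.564 in the Setd2f/f libraries. The size of a step was chosen to make this cosine high, so a value above 0 does not by itself show steps. Read numbers are therefore least certain in Setd2D/D. On this estimate a segment above 0 rested on a median of 73.2 and 62.9 reads in the Setd2D/D libraries, against 46.8 and 49.4 reads in the Setd2f/f libraries. An estimated 1 and 0 segments of the Setd2D/D libraries rested on fewer than 3 reads, against 4 and 4 in the Setd2f/f libraries. Reads without molecular identifiers are not independent molecules, and the number of B lineage cells behind them is not known. Among all rows, 17185 and 19448 genes were above 0 in Setd2D/D, against 19896 and 20192 in Setd2f/f.

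**Figure D1:**
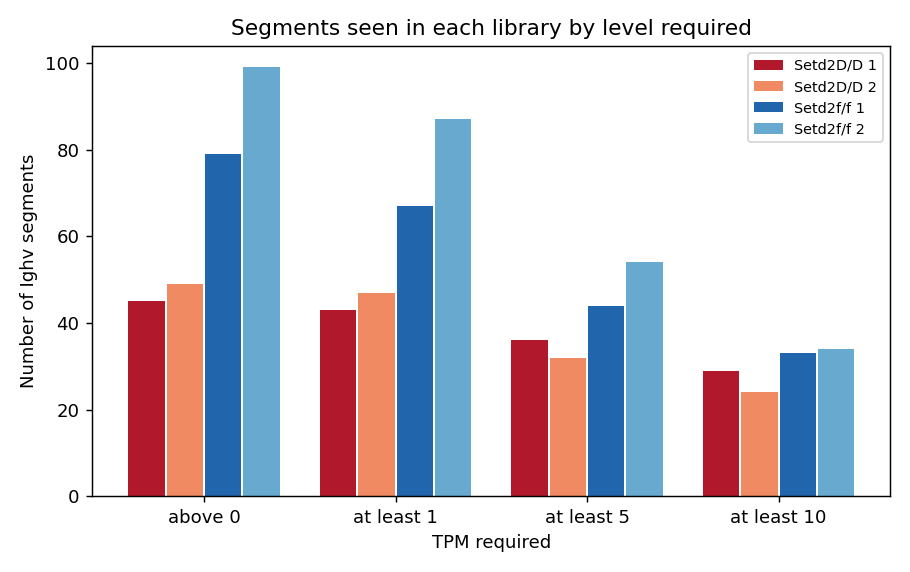
Number of the 185 Ighv segments that reached a given TPM in each library (bars, 1 per library, Setd2D/D in red and orange and Setd2f/f in blues). Above 0 the Setd2D/D libraries had 45 and 49 segments against 79 and 99 in Setd2f/f, and at 10 TPM 29 and 24 in Setd2D/D against 33 and 34 in Setd2f/f.

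B lineage marker genes were lower in sum in both Setd2D/D libraries, but not gene by gene. Summed over 10 marker genes of the B lineage, the level was 183 and 262 TPM in Setd2D/D, against 520 and 286 TPM in Setd2f/f, and none of the 10 was at 0 in any library. Of the 10, 0 passed limma. At an unadjusted p under 0.05, 3 were lower (6.99% of all genes tested were), while the authors' deposited table put 6 lower at an FDR of 0.05 (1.64% of its genes were). Of these 6, Igll1 and Pax5 overlapped between the genotypes in TPM. For Pax5 the limma difference was 0.36, opposite in sign to the deposited log2 change of -0.62. Vpreb1, part of the surrogate light chain that pairs with a new heavy chain, had the largest difference of the 10, at 17.6 and 37.4 TPM in Setd2D/D, against 107 and 58.8 TPM in Setd2f/f. Cd22, a B cell surface receptor, was instead higher in both Setd2D/D libraries, at 1.78 and 9.06 TPM, against 1.40 and 1.37 TPM in Setd2f/f, and Ms4a1, the CD20 gene, overlapped, with a limma difference of 0.04. The 8 plasma cell markers summed to 323 and 321 TPM in Setd2D/D, against 456 and 334 TPM in Setd2f/f, and Tnfrsf17 was listed at 0 in Setd2D/D replicate 1. Of the 8, 6 were tested and 0 passed limma. None reached an unadjusted p under 0.05 by limma or an FDR of 0.05 in the authors' deposited table. Their median log2 difference was -0.09, against -0.06 over all genes tested, and Jchain and Xbp1, the highest of them, overlapped between the genotypes. Mzb1 was lower in both Setd2D/D libraries, at 15.96 and 28.55 TPM, against 48.6 and 30.79 TPM in Setd2f/f. Its limma difference was -0.83 (adjusted p = 0.480), and the other plasma cell markers overlapped. The 5 erythroid markers summed to 422 and 403 TPM in Setd2D/D, against 98.9 and 149 TPM in Setd2f/f, and the 6 myeloid markers to 2533 and 3803 TPM in Setd2D/D, against 1854 and 2197 TPM in Setd2f/f. By limma 0 of either list passed, while at an unadjusted p under 0.05 all 5 erythroid and 4 myeloid markers were higher (4.17% of all genes tested were), as they were at an FDR of 0.05 in the authors' deposited table (1.51% of its genes were). The other myeloid markers, S100a8 and S100a9, overlapped, with limma differences of -0.20 and -0.26. The part of these lineages and of B lineage and plasma cell transcripts in the number of segments seen was not tested, and in such bulk samples fewer cells of a type and less RNA per cell cannot be told apart.

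Most segments found in a Setd2D/D library were also found in a Setd2f/f library. Of the 185 members, 71 were listed at 0 in all 4 libraries, 54 of them pseudogenes. The other 114 were above 0 in at least 1 library, 66 in a Setd2D/D library and 109 in a Setd2f/f library. In all 4 libraries 26 segments were seen, and these held 85.0% and 75.2% of the Ighv total in Setd2D/D, against 56.7% and 51.9% in Setd2f/f. Of the 114, 17 (14.9%) were above 0 in both Setd2f/f libraries and in neither Setd2D/D library, against 3.29% of the rows of the whole table that were above 0 anywhere. In the opposite direction it was 0 of 114, against 0.917% of those rows. The 17 segments held 17.6% and 12.4% of the Setd2f/f totals. Ighv8-8 led them, and they included Ighv5-2 (VH81X), a segment near the D segments that is known for its frequent use in early B cell development. Ighv5-2 was at 0 in both Setd2D/D libraries, against 0.66 and 0.82 TPM in Setd2f/f, or about 4.2 and 6.2 reads, which is close to the floor.

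Libraries of the same genotype shared fewer segments in Setd2D/D than in Setd2f/f. The Setd2D/D libraries had 28 segments in common, 62.2% and 57.1% of their lists. The Setd2f/f libraries had 69 in common, 87.3% and 69.7% of theirs. Between the genotypes, the segments of a Setd2D/D library were also in a Setd2f/f library in 85.7% to 93.9% of cases. The overlap of usage, the sum over segments of the smaller of the 2 shares, was 32.8% between the Setd2D/D libraries, 58.4% between the Setd2f/f libraries and 34.8% to 41.1% between libraries of different genotype. The Setd2D/D libraries thus had less usage in common with each other than either had with a Setd2f/f library.

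The signal was concentrated on few segments in every library, and on the fewest in Setd2D/D. The 3 highest segments held 47.4% and 46.2% of the Ighv total in the Setd2D/D libraries, against 40.7% and 28.4% in the Setd2f/f libraries. The 10 highest held 68.5% and 71.6% in Setd2D/D, against 61.7% and 49.6% in Setd2f/f. The inverse Simpson index, which counts how many equally used segments would give the same concentration, was 10.0 and 9.25 in Setd2D/D, against 12.7 and 21.6 in Setd2f/f. On all these measures the 2 genotypes did not overlap, but on each of them Setd2f/f replicate 1 lay closer to the Setd2D/D libraries than to its own replicate. The share of the single highest segment, 22.3% and 27.4% in Setd2D/D against 22.7% and 16.7% in Setd2f/f, did overlap.

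**Figure D2:**
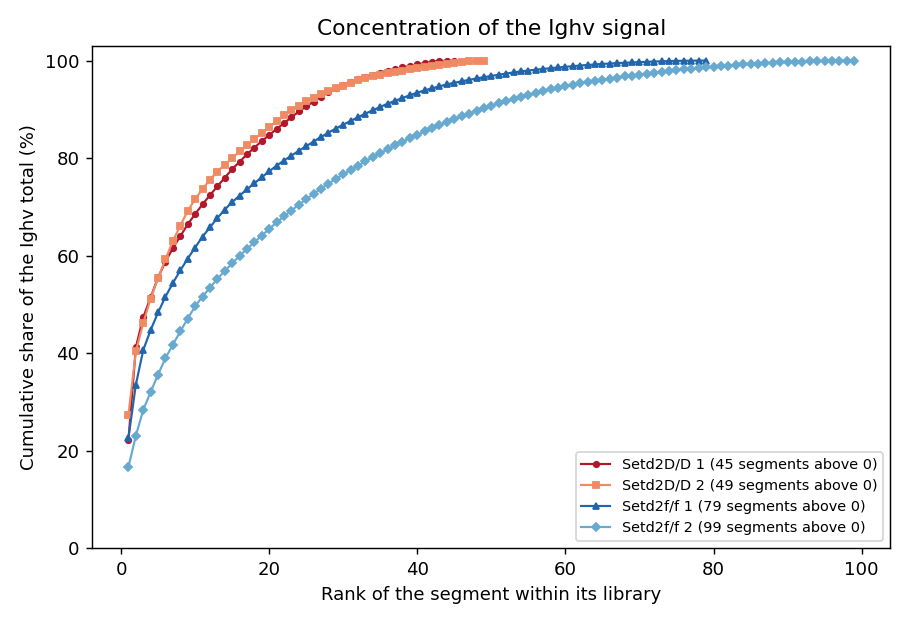
Cumulative share of the Ighv total (y axis, %) against the rank of the segment within its library (x axis), 1 line per library. The Setd2D/D lines climb faster and end at 45 and 49 segments, and the Setd2f/f lines end at 79 and 99.

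Which segment led was the same in both Setd2f/f libraries and differed between the Setd2D/D libraries. Ighv11-2 was highest in both Setd2f/f libraries. Ighv12-3 was highest in Setd2D/D replicate 1 and Ighv14-4 in Setd2D/D replicate 2. Both Ighv11-2 and Ighv12-3 are known from mouse B-1 cells, where they are used by clones that bind phosphatidylcholine.

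Ighv11-2 was at 53.6 and 141 TPM in Setd2D/D, against 311 and 204 TPM in the Setd2f/f libraries. Both Setd2D/D values lay below both Setd2f/f values, and the segment held 4.07% and 13.0% of the total in Setd2D/D, against 22.7% and 16.7% in Setd2f/f. The limma log2 difference was -1.52 (SE 0.50, adjusted p = 0.415) on the log2(TPM + 1) scale. Its near-identical neighbour Ighv11-1 was above 0 only in Setd2f/f replicate 2, at 31.0 TPM, and with it added the 2 ranges stayed apart, at 53.6 and 141 TPM in Setd2D/D against 311 and 235 TPM in Setd2f/f.

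Ighv12-3 was at 293 and 41.7 TPM in Setd2D/D, against 13.0 and 18.6 TPM in Setd2f/f. Both Setd2D/D libraries were higher, but by very different amounts, and the limma difference of 2.75 had an SE of 0.92 (adjusted p = 0.421). Ighv14-4 had the reverse pattern within Setd2D/D, at 23.6 and 297 TPM, against 4.17 and 7.18 TPM in Setd2f/f (limma difference 3.72, SE 1.19, adjusted p = 0.412). As shares of the Ighv total in the Setd2D/D libraries, Ighv12-3 made up 22.3% and 3.85%, and Ighv14-4 made up 1.79% and 27.4%.

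Ighv10-3 was higher in both Setd2D/D libraries. It was at 80.98 and 54.2 TPM in Setd2D/D, against 14.4 and 10.9 TPM in Setd2f/f, a ratio of means of 5.34. The limma difference was 2.31 (SE 0.26, unadjusted p = 0.000398), which did not pass over all genes (adjusted p = 0.122). Its relative Ighv10-1 was at 20.4 and 2.45 TPM in Setd2D/D, against 38.5 and 11.9 TPM in Setd2f/f, with overlapping groups. The sum of the 2 was 101 and 56.6 TPM in Setd2D/D, against 52.9 and 22.7 TPM in Setd2f/f, so that the groups stayed apart with a smaller gap.

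A few other segments were higher in both Setd2D/D libraries. Ighv1-9 was at 43.0 and 33.99 TPM in Setd2D/D, against 0.33 and 5.68 TPM in Setd2f/f (limma difference 3.72, SE 0.79, adjusted p = 0.301). Ighv2-3 was at 8.58 and 14.7 TPM in Setd2D/D, against 2.16 and 0 TPM in Setd2f/f (limma difference 2.79, adjusted p = 0.329). Ighv6-6, named because only 6 tested segments lay higher in both Setd2D/D libraries, was at 32.0 and 14.6 TPM, against 7.72 and 12.8 TPM in Setd2f/f.

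Ighv1-55 shows how far 1 library can carry a mean. It was at 250 and 5.76 TPM in Setd2D/D, against 30.4 and 14.7 TPM in Setd2f/f. Setd2D/D replicate 1 was the highest and Setd2D/D replicate 2 the lowest of the 4, so that the groups overlapped although the ratio of means was 5.67. The limma difference was 0.89 (SE 1.72, adjusted p = 0.879). Ighv1-82 was likewise at 0 and 63.2 TPM in Setd2D/D, against 12.7 and 16.3 TPM in Setd2f/f, and Ighv1-26 at 53.8 and 4.31 TPM, against 44.6 and 17.6 TPM.

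Segments that were lower in Setd2D/D included several listed at 0 there. Ighv8-8 was at 0 in both Setd2D/D libraries, against 149 and 8.28 TPM in Setd2f/f, so that it held 10.9% of the total in Setd2f/f replicate 1 and 0.677% in Setd2f/f replicate 2. Ighv3-1 was at 0 in both Setd2D/D libraries, against 8.08 and 64.7 TPM in Setd2f/f. Ighv2-9-1 was at 0 in both, against 5.40 and 24.2 TPM. All 3 also differed widely between the Setd2f/f libraries. Their limma differences were -5.22, -4.61 and -3.67, with adjusted p-values of 0.348, 0.298 and 0.280, and on this scale a difference from 0 depends on the pseudocount.

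Ighv5-9-1 was at 12.5 and 0 TPM in Setd2D/D, against 56.4 and 78.6 TPM in Setd2f/f (limma difference -4.20, SE 1.24, adjusted p = 0.396). Ighv5-16 was at 0 and 13.4 TPM in Setd2D/D, against 97.5 and 22.4 TPM in Setd2f/f (adjusted p = 0.452). Both belong to the Ighv5 subfamily, which includes the segment nearest to the D segments. Ighv7-1 was more even within each genotype, at 18.8 and 25.8 TPM in Setd2D/D, against 49.1 and 44.9 TPM in Setd2f/f (limma difference -1.06, SE 0.20, adjusted p = 0.275). Ighv1-72 (VH186.2), known from the response of C57BL/6 mice to the hapten NP, was at 13.5 and 7.18 TPM in Setd2D/D, against 16.6 and 16.7 TPM in Setd2f/f (limma difference -0.70, SE 0.33, adjusted p = 0.505), and its near-copy Ighv1-62-3, with 99.3% identity, was above 0 only in Setd2f/f replicate 2, at 1.86 TPM.

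**Figure D3:**
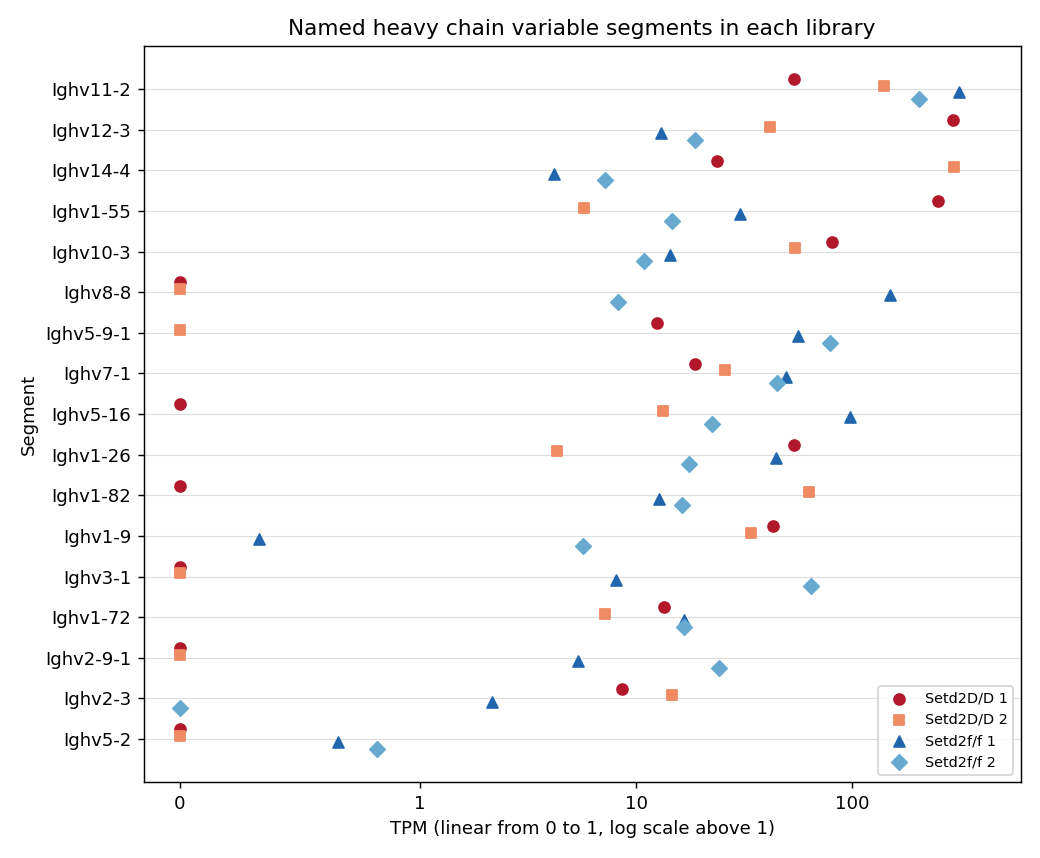
TPM of the 17 named segments in each library (x axis, linear from 0 to 1 and log above 1; 1 symbol per library, Setd2D/D in red and orange and Setd2f/f in blues). Ighv12-3, Ighv14-4 and Ighv10-3 lie higher in both Setd2D/D libraries, Ighv11-2, Ighv7-1 and Ighv5-9-1 lower, and Ighv8-8, Ighv3-1, Ighv2-9-1 and Ighv5-2 are at 0 in both.

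Over all genes, the fit called none of the segments. Genes with at least 1 TPM in at least 2 libraries were tested, which kept 71 of the 185 segments and left out 114, of which 43 were above 0 in some library. Of the 71, 0 passed limma at an adjusted p of 0.05, against 0.0678% of the 14755 genes tested (0.0203% higher and 0.0474% lower), and the smallest adjusted p was 0.103, for Ighv1-23. That segment was at 0 in both Setd2D/D libraries, against 10.1 and 10.7 TPM in Setd2f/f. Its nearest relative, Ighv1-15, with 98.3% identity, was at 0 and 14.0 TPM in Setd2D/D, against 9.77 and 4.78 TPM in Setd2f/f. The split of reads between Ighv1-23 and Ighv1-15 is uncertain. At an unadjusted p under 0.05 by limma, 5 segments (7.04%) were higher and 22 (31.0%) lower in Setd2D/D, against 4.17% and 6.99% of the genes tested. The genotypes did not overlap for 6 segments (8.45%) that were higher and 26 (36.6%) that were lower, against 16.8% and 27.6% of the genes tested. The filter passed 13 segments that were at 0 in both Setd2D/D libraries and 0 that were at 0 in both Setd2f/f libraries. These 13 had to be lower, and all 13 are among the 22 and among the 26. The counts among the 71 therefore do not stand for all members. The median log2 difference was -0.78 over the 71 segments, with these 13 included, and -0.06 over all genes tested.

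The authors' deposited table of the comparison lists 114 segments. At an FDR of 0.05 in the authors' deposited table, the higher segments numbered 6 (5.26%) and those lower in Setd2D/D 11 (9.65%), against 1.51% and 1.64% of its 23955 genes. Its 6 higher segments were Ighv14-4, Ighv12-3, Ighv1-55, Ighv10-3, Ighv1-9 and Ighv3-5, and of these 4 lay higher in both Setd2D/D libraries. The other 2 were Ighv1-55, which was lowest in Setd2D/D replicate 2, and Ighv3-5, which was at 23.6 TPM in Setd2D/D replicate 1 and listed at 0 in the other 3 libraries. Of its 11 lower segments, 9 were lower in both Setd2D/D libraries and 8 were listed at 0 in both. Those not among the 9 were Ighv11-1 and Ighv5-9, each above 0 only in Setd2f/f replicate 2, at 31.0 and 21.7 TPM. The log2 change in the authors' deposited table was 4.93 for Ighv14-4 (FDR 2.39e-39), 3.43 for Ighv12-3 (FDR 4.57e-25) and -1.34 for Ighv11-2 (FDR 5.58e-13). These FDRs stand beside the wide differences between the Setd2D/D libraries given above for Ighv12-3 and Ighv14-4.

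Segment subfamilies differed in whether their share of the Ighv total overlapped between the genotypes. Ighv1, the largest subfamily with 93 members, held 40.8% and 29.3% of the Ighv total in Setd2D/D, against 29.9% and 32.0% in Setd2f/f, and the groups overlapped. Its number of segments seen was nonetheless 20 and 24 in Setd2D/D, against 43 and 56 in Setd2f/f. Ighv5, with 22 members, held 2.99% and 7.56% in Setd2D/D, against 13.3% and 13.7% in Setd2f/f. In TPM it was at 39.4 and 81.9 in Setd2D/D, against 183 and 168 in Setd2f/f. Ighv7, with 4 members, was at 32.1 and 34.7 TPM in Setd2D/D, against 68.2 and 80.2 TPM in Setd2f/f.

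Ighv11 and Ighv12 each followed 1 segment. Ighv11 held 4.07% and 13.0% in Setd2D/D, against 22.7% and 19.2% in Setd2f/f, through Ighv11-2. Ighv12 held 22.3% and 3.85%, against 0.963% and 1.52%, through Ighv12-3. Ighv14 held 2.99% and 30.01%, against 2.37% and 1.70%; Ighv14-4 led it in the Setd2D/D libraries and Ighv14-2 (23.9 and 9.45 TPM) led it in Setd2f/f. Ighv10 held 7.70% and 5.23% in Setd2D/D, against 3.85% and 1.86% in Setd2f/f, and was led by Ighv10-3 in Setd2D/D and by Ighv10-1 in Setd2f/f. Ighv8, with 16 members, held 1.99% and 1.48% in Setd2D/D, against 13.4% and 2.26% in Setd2f/f, where the first value was mostly Ighv8-8.

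**Figure D4:**
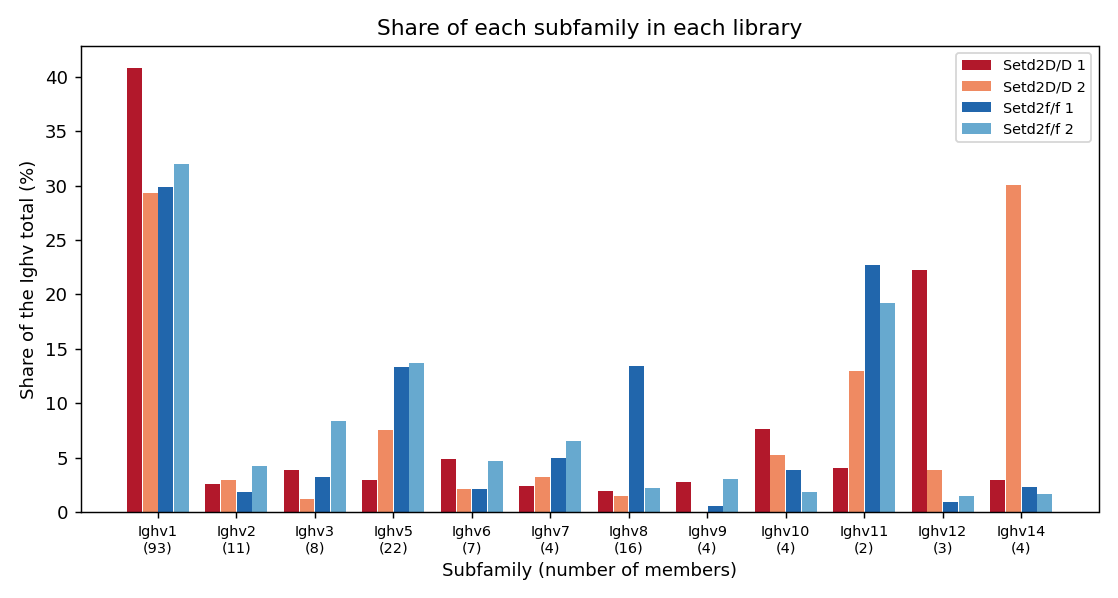
Share of the Ighv total held by each subfamily (y axis, %) in each library (bars), for subfamilies that reached 2% in some library, with their number of members on the x axis. Ighv5, Ighv7 and Ighv11 are lower in both Setd2D/D libraries, Ighv10, Ighv12 and Ighv14 higher, and Ighv1 overlaps.

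Along the locus, the members were divided by order into a near part of 62 segments next to the D segments, a middle part of 61 and a far part of 62. The near part held 21.1% and 58.0% of the total in Setd2D/D, against 49.7% and 56.1% in Setd2f/f. The middle part held 47.4% and 19.6% in Setd2D/D, against 15.1% and 21.6% in Setd2f/f, and the far part 31.5% and 22.4%, against 35.2% and 22.3%. For each of the 3 parts the shares of the genotypes overlapped, although in TPM the near part was lower in both Setd2D/D libraries, at 278 and 628 TPM, against 682 and 685 TPM in Setd2f/f. The number of segments seen was lower in both Setd2D/D libraries in every part, with 17 and 16 in Setd2D/D against 23 and 27 in Setd2f/f in the near part, 15 and 14 against 23 and 32 in the middle, and 13 and 19 against 33 and 40 in the far part. Pseudogenes gave 3 and 1 of the segments seen in Setd2D/D, against 9 and 12 in Setd2f/f, and 0.822% and 0.259% of the total, against 1.13% and 2.75%.

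**Figure D5:**
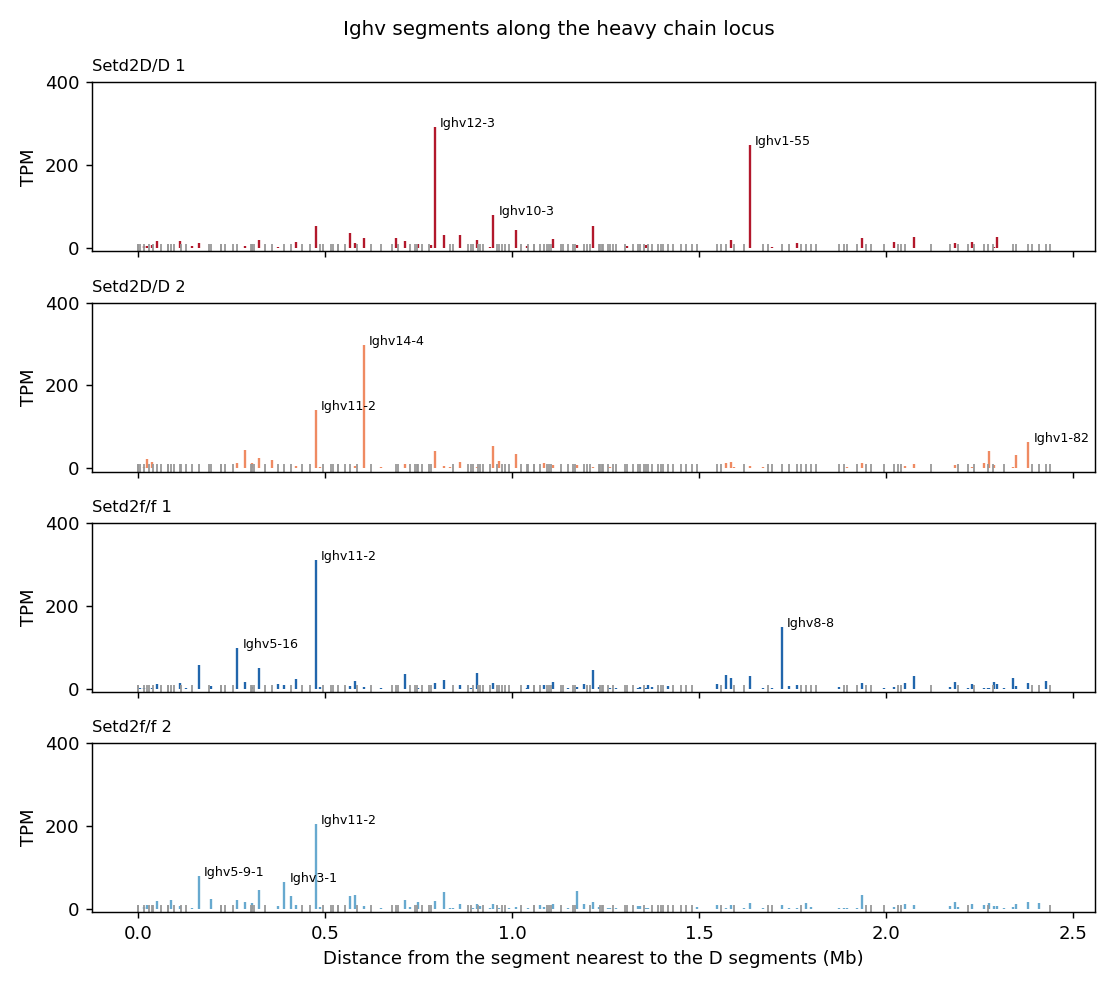
TPM of each Ighv segment (y axis) against its distance in Mb from the segment nearest to the D segments (x axis), 1 panel per library, with grey ticks for segments at 0 and names on the 3 highest. The highest peak is Ighv12-3 in Setd2D/D replicate 1, Ighv14-4 in Setd2D/D replicate 2 and Ighv11-2 in both Setd2f/f libraries.

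Genes that act on the heavy chain were looked at in the same fit. Of 12 genes of V(D)J recombination, 0 passed limma in either direction. At an unadjusted p under 0.05, 1 was lower, a share near the 6.99% of all genes tested, and the authors' deposited table called 0 higher and 1 lower, against 1.64% of its genes lower. That gene was Dntt in both, the terminal transferase that adds bases at the joints, at 427 and 408 TPM in Setd2D/D, against 668 and 594 TPM in Setd2f/f (limma log2 difference -0.59, SE 0.10, adjusted p = 0.242). Rag1, a subunit of the recombinase, was at 12.9 and 13.5 TPM in Setd2D/D, against 23.4 and 9.73 TPM in Setd2f/f, with overlapping groups. The list's median log2 difference was -0.17, against -0.06 over all genes tested.

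Of 21 regulators of the heavy chain locus, 0 passed limma, with a median limma difference of -0.07. At an unadjusted p under 0.05, 1 was higher, a share near the 4.17% of all genes tested, and the authors' deposited table called 1 higher and 2 lower, against 1.51% and 1.64% of its genes. The higher one was Stat5a, which acts below the interleukin-7 receptor, at 80.5 and 78.8 TPM in Setd2D/D, against 53.4 and 60.5 TPM in Setd2f/f (limma adjusted p = 0.365). The lower ones were Pou2af1, a B cell coactivator, at 11.6 and 14.2 TPM in Setd2D/D, against 29.95 and 15.2 TPM in Setd2f/f, and Pax5, a factor of B cell identity. For Pax5 the sources differ in sign: its TPM was 18.8 and 14.8 in Setd2D/D, against 17.4 and 9.33 in Setd2f/f, with overlapping groups and a limma difference of 0.36, while the log2 change in the authors' deposited table was -0.62.

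Of 9 partners of the heavy chain in the precursor B cell receptor and its signalling, 0 passed limma, with a median difference of -0.80. At an unadjusted p under 0.05, 4 were lower, against 6.99% of all genes tested, and 6 were lower by the authors' deposited table, against 1.64% of its genes. Of the 4, Vpreb1, Cd79a and Cd79b were already counted among the B lineage markers above, and of the 6 also Igll1. This list and the B lineage markers are therefore not separate results. Blnk, an adaptor below that receptor, was at 21.1 and 22.6 TPM in Setd2D/D, against 66.2 and 33.3 TPM in Setd2f/f (limma adjusted p = 0.412). Of 8 constant regions, 7 were tested. Limma called 1 lower (0.0474% of all genes tested were) and the authors' deposited table called 3 (1.64% of its genes were). At an unadjusted p under 0.05 by limma, 4 were lower (6.99% of all genes tested were). The deposited calls included Ighg2b, at 8.16 and 34.6 TPM in Setd2D/D, against 81.4 and 110 TPM in Setd2f/f (FDR 8.4e-28). They also included Ighg2c, at 7.44 and 3.68 TPM in Setd2D/D, against 33.1 and 52.9 TPM in Setd2f/f (FDR 2.94e-18). Their limma adjusted p-values were 0.383 and 0.202. Ighm, Igha and Ighg3 overlapped between the genotypes. The one called by limma was Ighg1, the constant region of IgG1 (limma adjusted p = 0.0476). It was at 0 and 0.03 TPM in Setd2D/D, against 21.5 and 21.9 TPM in Setd2f/f. Its log2 difference was -4.49, and -7.58 at a pseudocount of 0.1. Ighg1 passed the filter only through the Setd2f/f libraries, so its call could only be lower. This call was lost with the replicate block (adjusted p = 0.133), with any 1 library left out (0.110 to 0.949), at pseudocounts of 0.5 and 0.1 (0.0552 and 0.121), without a filter (0.188) and with a filter at 5 TPM (0.104), and the lowest adjusted p, without the variance trend, was 0.0314. The 20 D segments and 4 J segments of the table were at 0 in all libraries.

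The light chain showed the same kind of difference in number, without a test of whether the 2 loci differ. Of 162 kappa variable segments (Igkv), 36 and 38 were above 0 in Setd2D/D, against 56 and 62 in Setd2f/f, while their total was 2174 and 1619 TPM in Setd2D/D, against 2008 and 1576 TPM in Setd2f/f.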

How the data were processed

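Messenger RNA from LSK cells of 2 Setd2D/D and 2 Setd2f/f libraries was sequenced. The authors deposited TPM values for 46517 genes and a table comparing the genotypes over 23955 genes, from which the log2 fold change and the FDR, an adjusted p-value, are quoted. Its F score and mean log2 CPM, also as deposited, were not used. Per the submitters' processing notes, RSEM, cutadapt, edgeR and build mm10 were used; versions and roles are not stated. In 5 rows of the TPM values and 2 of the comparison, commas within names displaced the columns, and these rows were realigned. Positions, types and exon lengths are from GENCODE M21 on GRCm38 (mm10), which held all 185 segments.

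The TPM values as deposited were transformed to log2(TPM + 1), filtered at 1 TPM in 2 libraries (14755 genes) and fitted with limma 3.58.1 in R 4.3.3 with genotype as the term, a trend of variance on abundance and 2-sided p-values adjusted by Benjamini-Hochberg (threshold 0.05). The script was tested on simulated data. TPM holds no counts. The worth of 1 read was estimated, as the period of TPM times length less 50 nt among genes with 1 transcript, and is approximate. As background, RSEM divides reads that match several transcripts, so a level can be split between close relatives, and the short length of a segment turns few reads into a high TPM.

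Named segments were the 3 highest of each library, the 10 highest by mean, the 5 largest rises and 5 largest falls without overlap between the genotypes, any past the threshold, and 4 known by name. Ighv10-1, Ighv11-1, Ighv1-23, Ighv1-62-3, Ighv3-5 and Ighv6-6 were added after their values were seen. The members and lists were chosen with earlier results of these data known. Alternatives covered the pseudocount (0.5 and 0.1), the filter (none, or 5 TPM), 3 rescalings, 2 other moderations, a replicate block, each library left out (also for Ighg1, added after seeing its call), and for sums and shares other thresholds, V genes only and weighting by exon length.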

Additional observations from a re-analysis of the deposited data

How the results depend on the processing

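No segment passed limma at pseudocounts of 0.5 or 0.1, without a filter, with a filter at 5 TPM, under any of the 3 rescalings, with robust moderation, with the replicate block (0 of 71, and 29 at an unadjusted p under 0.05) or with any 1 library left out (0 of 71; the single library left in a genotype is then taken to vary as the other genotype does). Without the variance trend 1 segment passed, Ighv1-23. With the filter remade on the remaining libraries, an alternative chosen after seeing the data, 2 segments passed without Setd2D/D replicate 1 (Ighv14-4 and Ighv5-9-1) and 5 without Setd2D/D replicate 2 (Ighv10-3, Ighv12-3, Ighv1-23, Ighv1-69 and Ighv1-82), and 0 without either Setd2f/f library. The cause was not tested. The replicate numbers pair nothing in the labels, and over all genes replicates of the same number hardly deviated together (r = 0.04). That value does not speak for the sums given here. In both genotypes the Ighv total, Ighm and the Igkv total were higher in replicate 1 than in replicate 2. The ratio of the Ighv total to Ighm was lower in replicate 1 in both. Whether the replicate numbers stand for a shared origin was not tested.

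The log2 differences of 3 overlapping segments changed sign when a library was left out, with ranges of -2.45 to 0.91 for Ighv1-26, -1.71 to 3.50 for Ighv1-55 and -3.95 to 2.06 for Ighv1-82. The difference in the mean number of segments seen, Setd2D/D minus Setd2f/f, was -42.0 above 0, and between -52.0 and -32.0 with 1 library left out, but -15.0 at 5 TPM. The difference in the share of the 3 highest segments was 12.3 percentage points, between 6.12 and 18.4 with 1 library left out, and 5.16 for the single highest. The difference in the Ighv1 share was 4.11 percentage points of TPM, between -1.61 and 9.84 with 1 library left out, but -8.79 as a share of the segments seen. The difference in total was -97.5 TPM, between -214 and 19.0 with 1 library left out, so that its sign rests on single libraries. By the approximate read estimate, 3 reads came to 0.648 and 0.449 TPM in the Setd2D/D libraries, against 0.473 and 0.399 TPM in the Setd2f/f libraries; no count at matched depth was made.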
